A study of Mus musculus with 10 samples.

Results

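The 39 genes described here encode the core machinery of macroautophagy, and they were taken by name from a list that follows the steps of the pathway: 5 genes of the initiation complex, 5 of the class III PI3-kinase complexes, 6 of the ATG9, ATG2 and WIPI step, 10 of the conjugation reactions, 5 of the ATG8 family, 5 cargo receptors, 2 fusion factors and 1 transcription factor. They are 39 of the 55536 mouse genes counted in these libraries, and the rule that names them uses no measured value. RNA was sequenced in bulk from whole cerebellum and cerebral cortex of C57BL/6J-derived mice at 1 year of age. The 2 Snx14-KO mice carry a CRISPR-made frameshift deletion in both copies of Snx14 in every cell of the body. The 3 control mice were pooled as the labels name them, although controls 1 and 2 are heterozygous (Het) for the deletion and control 3 is WT. Each of the 5 mice gave both tissues, which makes 10 libraries. SNX14 is a sorting nexin of the endoplasmic reticulum, and its loss in people causes a childhood ataxia in which earlier work on patient cells had raised a question about autophagy, so the comparison of KO with control asks whether the mRNAs of this machinery change with the gene.

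Macroautophagy encloses cytoplasm in a double membrane, the autophagosome, and delivers it to lysosomes. A kinase complex starts the process, a lipid kinase marks the membrane, lipid transfer enlarges it, and a conjugation cascade attaches small ATG8 proteins to the lipid phosphatidylethanolamine, where they bind cargo receptors. Neurons do not divide and depend on this pathway to clear proteins and organelles, and mice that lack Atg5 or Atg7 in neurons develop neurodegeneration, with Purkinje cells among those affected. Much of the regulation acts on the proteins rather than on their mRNAs, and these libraries measure mRNA only.

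The ATG8 genes recur in several of the comparisons. Each is made with a tail that ATG4 proteases cut after a glycine, and this exposed glycine is then joined to lipid. The last 45 coding bases of each gene are shown because they hold that glycine codon, in capitals, and the stop codon at the end. They come from the first GENCODE M21 transcript of each gene (build GRCm38).
Map1lc3a: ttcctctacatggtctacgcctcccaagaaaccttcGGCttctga
Map1lc3b: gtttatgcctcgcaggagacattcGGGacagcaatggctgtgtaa
Gabarap: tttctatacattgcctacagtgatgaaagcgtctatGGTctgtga
Gabarapl1: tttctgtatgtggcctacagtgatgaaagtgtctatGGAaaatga
Gabarapl2: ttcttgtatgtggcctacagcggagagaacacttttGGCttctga
In Map1lc3b 5 codons follow the glycine codon, and in each of the other 4 genes 1 codon does. Across the whole coding sequence the closest pair was Map1lc3a and Map1lc3b, at 77.3% identity, followed by Gabarap and Gabarapl1 at 74.9%. The other 8 pairs lay between 54.4% and 64.9%. No pair shared an identical run longer than 17 coding bases. This bears on the counting, since read pairs that mapped to several places were left out. Only these coding sequences were compared. Untranslated exons and other places in the genome were not, so the loss of such read pairs was not tested. The genes lie apart in the genome: Map1lc3a at chr2:155276297-155278073, Map1lc3b at chr8:121590361-121598760, Gabarap at chr11:69991143-69994951, Gabarapl1 at chr6:129533160-129542346 and Gabarapl2 at chr8:111940703-111953612, all on the plus strand of GRCm38.

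The libraries held 16088310 to 22975355 gene counts, and each member had between 88 and 11076 counts in every library, so all 39 passed the filter on low counts in every comparison. Snx14 was checked first. Its level in cerebellum was 42.8, 39.9 and 73.3 counts-per-million (CPM) in controls 1 to 3 and 15.5 and 17.4 CPM in KO 1 and KO 2. In cortex it was 34.4, 35.0 and 50.9 CPM against 14.8 and 16.1 CPM. The KO libraries were the lowest in both tissues, and the WT control was above both Het controls. Granule cell markers summed to 3953 to 4688 CPM in cerebellum and 97.4 to 124 CPM in cortex, and cortical excitatory neuron markers to 423 to 493 CPM and 1293 to 1833 CPM, as the tissue labels would have it. Cortex control 2 stood apart, with 8723 CPM of oligodendrocyte markers against 4723 to 5192 CPM in the other 4 cortex libraries. Its striatal neuron markers summed to 3077 CPM against 1321 and 1183 CPM in controls 1 and 3 and 737 and 363 CPM in the KO mice. Cerebellum KO 1 had 45.9 CPM of choroid plexus markers, where the other 4 cerebellum libraries had 1188 to 3373 CPM.

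No member of the autophagy machinery passed the test between KO and control cerebellum. A gene was called at an adjusted p under 0.05 by the quasi-likelihood test of edgeR, and 0 of 39 members were called where 2.14% of the 19447 genes tested were. DESeq2 called 1 of 39 members, Atg12, which was lower in KO cerebellum, beside 719 of the 35258 genes with any count. At an unadjusted p under 0.05 there were 4 members, Atg12 and Atg3 lower and Wdr45 and Map1lc3b higher, which is 10.3% of the members beside 13.4% of all genes. The median log2 difference, KO minus control, was 0.01 over the members and 0.00 over all genes, and the members ranged from -0.32 to 0.25. The median size of the difference was 0.06 for members and 0.13 for all genes. All 39 of the 95% intervals of the main edgeR fit lay between -0.49 and 0.47, within the study's limit of 0.5 on the log2 scale. This holds for that fit only. By DESeq2 the difference of Atg12 was -0.32 with an SE of 0.10, so a change of 0.5 is not excluded for this gene. In edgeR without KO 2 its difference was -0.36.

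These values were obtained in a tissue whose cell markers differed between the groups. All 8 Purkinje cell markers fell in KO cerebellum, with a summed level of 8037 to 9852 CPM in the controls and 4047 to 4146 CPM in the KO mice. Of the astrocyte markers 6 of 7 rose, and the list summed to 2932 to 3129 and 3636 to 3833 CPM. The remaining astrocyte marker, Slc1a3, went the other way, at a log2 difference of -0.43. Both KO libraries were below every control, but it was not called. Microglia markers summed to 98.4 to 113 CPM in the controls and 145 to 153 CPM in the KO mice, with 7 of 8 higher in value and 1, Lyz2, called. No marker of these lists was at 0 in all libraries. The study had already named Calb1, Pcp2, Car8 and Rgs8 as lower, and Gfap, Lyz2, Cd68 and Trem2 as higher, in 1-year KO cerebella. The lists hold these genes, so the counts of markers were partly set in advance. In bulk tissue, fewer cells of a type and less RNA per cell cannot be told apart, and the part of these shifts in the members' values was not tested.

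**Figure D1:**
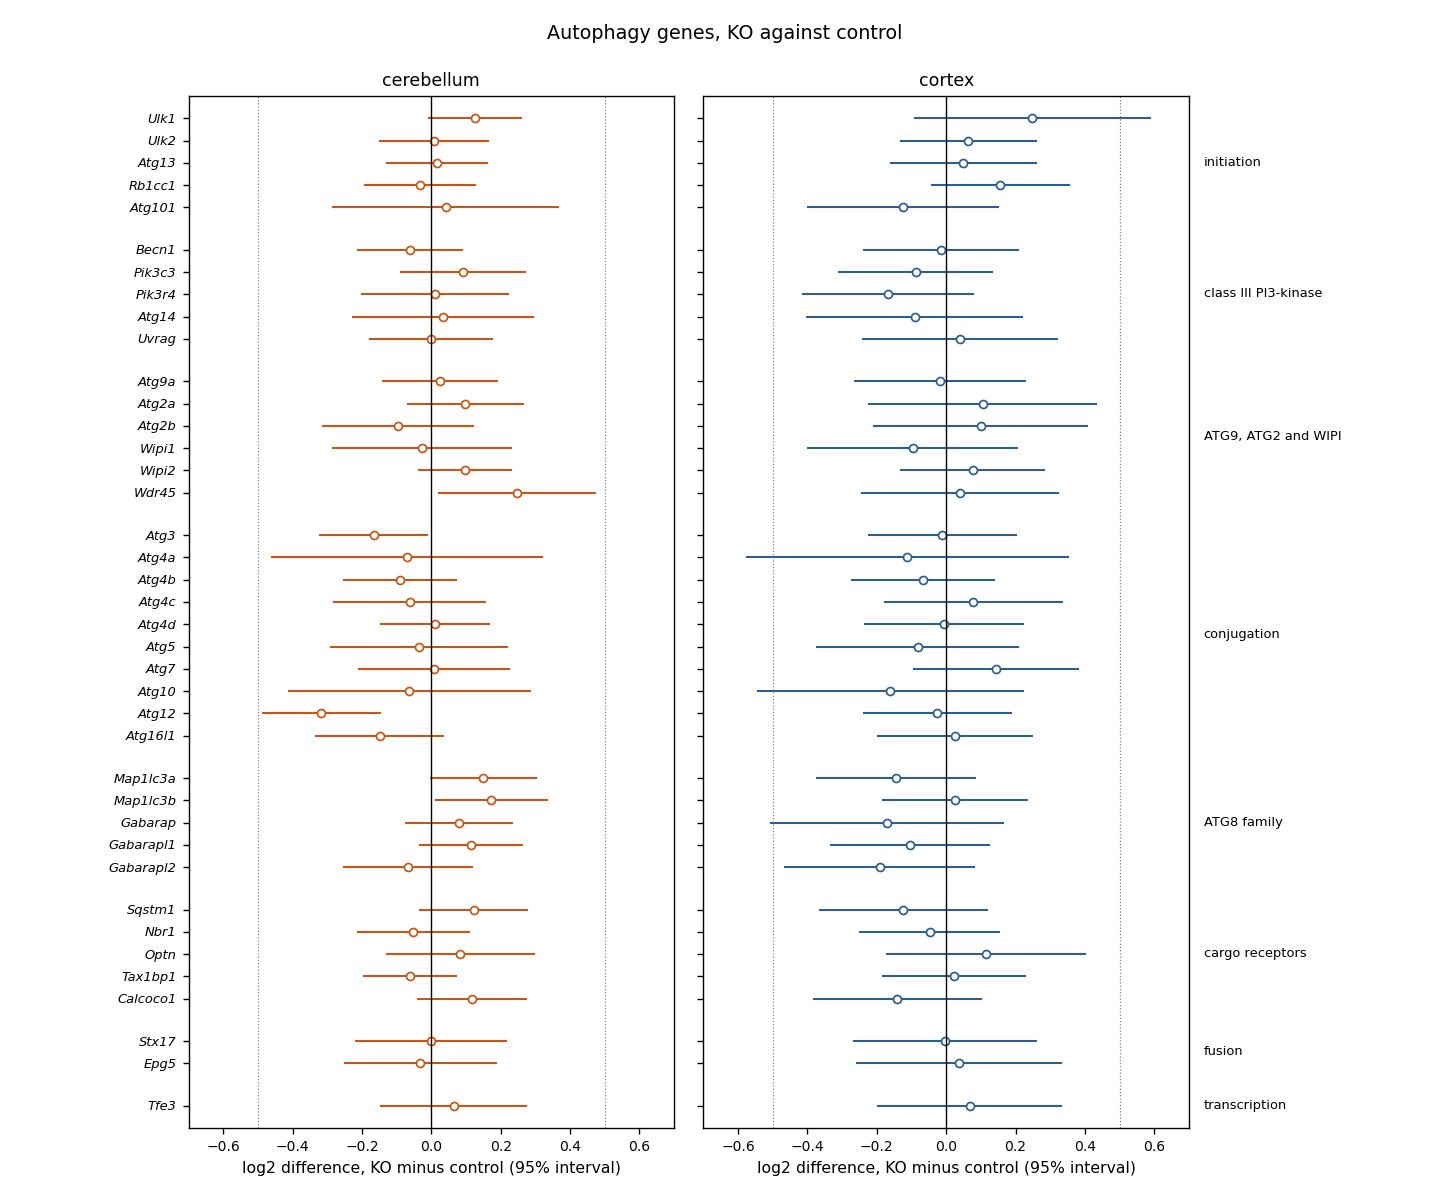
Log2 difference, KO minus control, of the 39 members in cerebellum (left) and cortex (right), ordered by step of the pathway. Points are edgeR estimates from 3 control and 2 KO libraries, bars are 95% intervals, open points did not pass the test and dotted lines mark 0.5 in each direction; all points are open, and the intervals of all 39 members in cerebellum and of 35 in cortex lie between the dotted lines.

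Atg12 came closest to a call in cerebellum. It encodes the ubiquitin-like protein that is joined to ATG5 to form the enzyme that lipidates ATG8 proteins. Its level was 70.7, 74.8 and 66.8 CPM in the controls and 55.5 and 58.6 CPM in the KO mice, so both KO libraries were below every control. The log2 difference was -0.32 (SE 0.07, 95% interval -0.49 to -0.15), a level 19.8% lower, with an adjusted p of 0.0800 by edgeR and 0.0336 by DESeq2. In cortex Atg12 was measured at 76.4, 79.4 and 73.0 CPM in the controls and 70.1 and 78.4 CPM in the KO mice, where the groups overlapped. Atg3, the enzyme that passes ATG8 to its lipid, stood at 60.1, 64.2 and 64.3 CPM in control cerebellum and 55.6 and 57.0 CPM in KO cerebellum, a log2 difference of -0.17 (SE 0.07, adjusted p = 0.330). The groups did not overlap, but the difference did not pass the test.

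Among the 10 conjugation genes, 8 had a negative difference in cerebellum and 2 a positive one, with a median of -0.07. For 4 of them both KO libraries were below all controls, namely Atg12, Atg3, Atg16l1, which anchors the ATG12-ATG5 enzyme to the membrane, and the ATG8 protease Atg4b. Over all 39 members the groups did not overlap for 15, which is 38.5% of the members beside 30% of all genes tested. Of these, 10 were higher in KO, as were 15.5% of all genes, and 5 were lower, as were 14.6%. Atg5 and Atg7, the conjugation genes most used in knockout work, had log2 differences of -0.04 and 0.01 in cerebellum.

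Wdr45, a WIPI protein that binds the lipid mark of the growing membrane and whose loss in people causes neurodegeneration with iron accumulation, was measured at 37.2, 41.7 and 35.5 CPM in control and 48.6 and 42.6 CPM in KO cerebellum. Both KO values were above the highest control, KO 2 only just. The log2 difference was 0.25 (SE 0.10, 95% interval 0.02 to 0.47, adjusted p = 0.318). Of its exonic bases, 24.7% lie in an exon of another gene, with Gm45208 the largest overlap. The counting did not use strand, so read pairs there could belong to another gene.

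**Figure D2:**
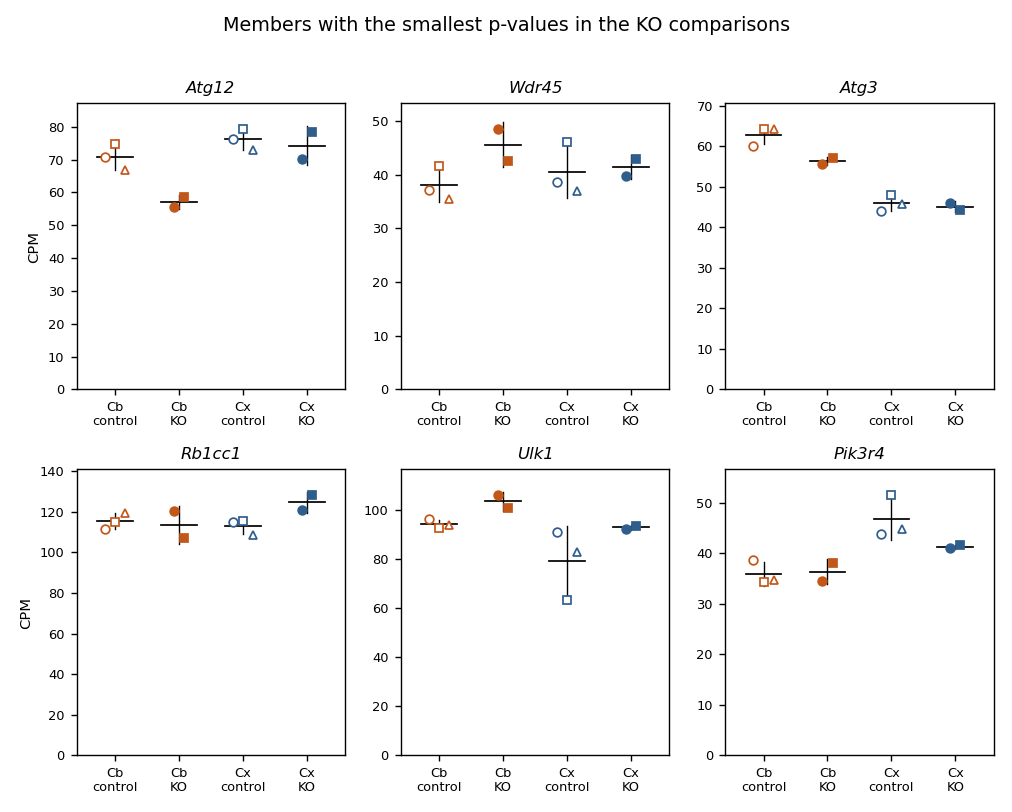
Levels in CPM (axis from 0) of 6 members with the smallest p-values in the KO comparisons, in cerebellum (Cb, orange) and cortex (Cx, blue). Circles, squares and triangles are mice 1, 2 and 3 of a group, filled for KO, with the mean and SD as black lines; Atg12 in KO cerebellum lies at 55.5 and 58.6 CPM, below the 66.8 to 74.8 CPM of the controls, and Ulk1 in cortex control 2 lies apart at 63.2 CPM.

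Of the 5 ATG8 genes, 4 had positive differences in KO cerebellum and none passed the test. Map1lc3b, the source of the LC3B protein by which autophagosomes are usually counted, was at 184, 202 and 181 CPM in the controls and 215 and 214 CPM in the KO mice. The log2 difference was 0.17 (SE 0.07, 95% interval 0.01 to 0.33, adjusted p = 0.329). Map1lc3a, its paralogue, was at 94.99, 106 and 101 CPM against 114 and 110.1 CPM, a log2 difference of 0.15 (SE 0.07, adjusted p = 0.380). In both genes each KO library was above each control, and control 2 was the control nearest to them. With each library left out in turn, the adjusted p ran from 0.0637 to 0.642 for Map1lc3b and from 0.189 to 0.703 for Map1lc3a, the lowest in both without control 2.

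The other 3 ATG8 genes in cerebellum were as follows. Gabarapl1, the most abundant of the family per length, was at 279.7, 283 and 288 CPM in the controls and 307 and 311 CPM in the KO mice, with a log2 difference of 0.11 and an adjusted p of 0.520. Both KO libraries were above all controls. Gabarap was at 120.0, 133 and 121 CPM against 133 and 132 CPM, and Gabarapl2 at 183, 203 and 178 CPM against 192 and 169.5 CPM. In both genes the groups overlapped, in Gabarap through control 2 alone. Sqstm1, which encodes the cargo receptor p62 and whose protein accumulates when autophagy stalls, was at 336, 340.4 and 324 CPM against 366 and 364 CPM, a log2 difference of 0.12 (SE 0.07, adjusted p = 0.513).

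At the start of the pathway the cerebellum values lay closer together. The 5 initiation genes ranged from -0.03 to 0.13 in log2 difference, with the kinase gene Ulk1 the highest, at 96.1, 92.4 and 93.9 CPM in the controls and 106 and 101 CPM in the KO mice (adjusted p = 0.406). The 5 genes of the PI3-kinase complexes, which hold the scaffold Becn1 and the catalytic subunit Pik3c3, ranged from -0.06 to 0.09. At the end of it, the fusion factors Stx17 and Epg5 had differences of 0.00 and -0.03, and Tfe3, a transcription factor of lysosomal and autophagy genes, had a difference of 0.06.

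In cortex 0 of 39 members were called, and so were 0 of the 19202 genes tested (0%). DESeq2 called 53 genes and none of the members. At an unadjusted p under 0.05 there were 0 members beside 5.93% of all genes. Snx14 itself, at a log2 difference of -1.36, had an adjusted p of 0.754 by edgeR and 2.11e-06 by DESeq2, so a lack of calls by edgeR in cortex says little about single genes. The members ranged from -0.19 to 0.25 with a median of -0.01, and 35 of the 39 intervals lay within 0.5 in each direction. The widest were those of Ulk1, up to 0.59, and Atg4a, down to -0.57. The groups did not overlap for 13 members, which is 33.3% of the members beside 24.7% of all genes. Of these, 5 were higher in KO, beside 10.5% of all genes, and 8 were lower, beside 14.2%. Cell markers differed between the groups here too. All 7 striatal neuron markers had lower values in KO cortex, with sums of 1183 to 3077 CPM in the controls and 363 to 737 CPM in the KO mice. Astrocyte markers summed to 2681 to 3805 and 3971 to 4263 CPM, with 6 of 7 higher in value. The part of these shifts in the members' cortex values was not tested.

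The members with the smallest p in cortex were Rb1cc1, Ulk1, Gabarapl2, Pik3r4 and Map1lc3a. Rb1cc1, the FIP200 scaffold of the initiation complex, was at 115, 116 and 108 CPM in the controls and 121 and 128 CPM in the KO mice, a log2 difference of 0.16 (SE 0.08, adjusted p = 0.885). Ulk1 was at 90.8, 63.2 and 82.8 CPM against 91.9 and 93.5 CPM, a log2 difference of 0.25 (SE 0.15, adjusted p = 0.886). Control 2 decides this value: without that library it was 0.11.

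Gabarapl2 in cortex was at 96.9, 124 and 107 CPM in the controls and 93.2 and 96.1 CPM in the KO mice (log2 difference -0.19, SE 0.12). Pik3r4, the regulatory subunit of the lipid kinase, was at 43.8, 51.6 and 44.8 CPM against 41.0 and 41.5 CPM (log2 difference -0.17, SE 0.11). Map1lc3a was at 154, 169.5 and 147 CPM against 143 and 138 CPM (log2 difference -0.15, SE 0.10). All 3 had an adjusted p of 0.886, and in all 3 control 2 was the highest library. Without it the differences of Gabarapl2, Pik3r4 and Map1lc3a were -0.09, -0.09 and -0.08, and 0 members were called although 157 genes of all were. In this library Ulk1, Atg2b, Epg5, Atg2a and Uvrag were the members farthest below the other controls. Across the 39 members, its difference from the other cortex controls went down with exonic length (Spearman's rho -0.43), and across the 19202 genes rho was -0.20. The same mouse's cerebellum library had values of -0.31 and -0.18. Across the members, rho was 0.30 and 0.33 in cortex controls 1 and 3 and 0.36 and 0.07 in cerebellum controls 1 and 3. Each library is set against the remaining controls of its tissue, so the values of a tissue are tied and opposite signs follow. These correlations are across genes of single libraries, and their part in the cortex differences was not tested.

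The KO effects of the tissues were then compared with each other by an interaction term over all 10 libraries. No member was called, beside 0.102% of the 20614 genes tested, and DESeq2 also called 0 members. At an unadjusted p under 0.05 there were 5 members, 12.8%, beside 8.28% of all genes. Map1lc3a had the largest value, with a KO effect in cerebellum 0.32 higher on the log2 scale than in cortex (SE 0.11, 95% interval 0.07 to 0.57, adjusted p = 0.430). It was followed by Calcoco1 at 0.28 and Atg12 at -0.27, with adjusted p of 0.554 and 0.541, and then by Sqstm1 at 0.27 and Gabarapl1 at 0.24. All 5 ATG8 genes had a positive value, from 0.15 to 0.32, and the median of all genes was 0.03. Without cortex control 2 these values ran from 0.02 for Gabarapl2 to 0.23 for Map1lc3a. The control and KO levels of Calcoco1, a receptor for endoplasmic reticulum and Golgi membranes, were 61.9, 63.5 and 63.4 against 65.6 and 71.6 CPM in cerebellum and 80.5, 91.7 and 78.1 against 77.8 and 72.1 CPM in cortex.

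The tissues themselves differed far more than the genotypes. In control mice 18 of 39 members were called between cerebellum and cortex, 7 higher and 11 lower in cerebellum, a share of 46.2% where 53.3% of all genes tested were called, 26.5% higher and 26.8% lower. With an absolute log2 difference over 0.5 there were 8 members, 20.5%, beside 40.5% of all genes. The median size of the difference was 0.25 for the members and 0.45 for all genes. The calls fell in 6 of the 8 steps, and in each of these but the initiation and PI3-kinase steps, where all calls were lower in cerebellum, they went in both directions.

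The ATG8 family held the largest differences in each direction. Gabarapl1 was at 279.7, 283 and 288 CPM in cerebellum and 551, 561 and 603 CPM in cortex of the control mice, so the tissues were far apart. Its log2 difference, cerebellum minus cortex, was -1.01 (SE 0.08, adjusted p = 1.05e-05). Gabarapl2, the GATE-16 protein, went the other way, at 183, 203 and 178 CPM in cerebellum and 96.9, 124 and 107 CPM in cortex (log2 difference 0.78, SE 0.10, adjusted p = 0.000261). Map1lc3a was lower in cerebellum, at 94.99, 106 and 101 CPM against 154, 169.5 and 147 CPM (log2 difference -0.64, SE 0.08, adjusted p = 0.000222). Map1lc3b, at 184, 202 and 181 against 179.7, 197 and 185 CPM, had a difference of 0.01 with a 95% interval of -0.17 to 0.19. Gabarap, at 120.0, 133 and 121 against 117, 152 and 111 CPM, had a difference of -0.03 with an interval of -0.30 to 0.24. For Gabarapl1, 28.3% of the exonic bases lie in an exon of another gene, with 1700101I11Rik the largest overlap. Read pairs there cannot be told apart.

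**Figure D3:**
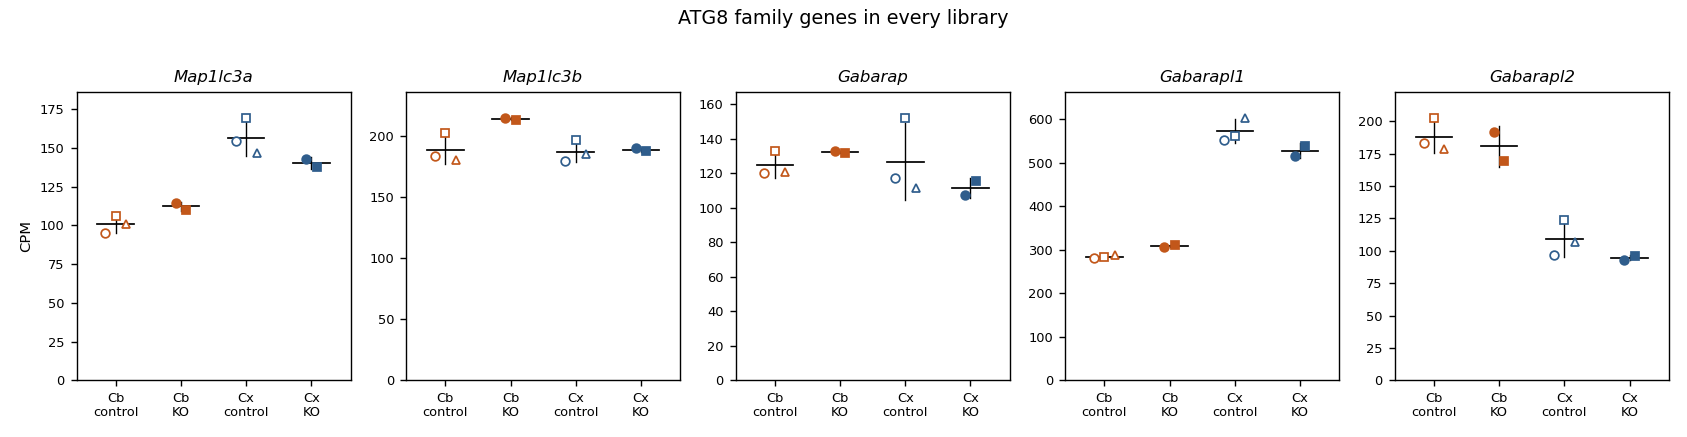
Levels in CPM (each axis from 0) of the 5 ATG8 family genes in every library of cerebellum (Cb, orange) and cortex (Cx, blue). Circles, squares and triangles are mice 1, 2 and 3 of a group, filled for KO, with the mean and SD as black lines; Gabarapl1 is near 279.7 to 311 CPM in cerebellum and 515 to 603 CPM in cortex, and Gabarapl2 shows the opposite order.

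The family was also summed on a scale per length. Its summed level as transcripts-per-million (TPM), computed from the counts and the exonic length of each gene, was 1299 ± 10.1 (SD, n = 3) in control cerebellum and 1551 ± 55.7 (SD, n = 3) in control cortex. The KO mice had 1398 ± 14.9 (SD, n = 2) and 1492 ± 14.6 (SD, n = 2). Gabarapl1 made up 35.3% ± 1.30 of the sum in control cerebellum and 51.0% ± 3.16 in control cortex. Gabarapl2 made up 20.2% ± 0.75 and 8.40% ± 0.66, and Gabarap 16.9% ± 0.36 and 12.3% ± 1.65. Map1lc3a held 21.3% ± 0.50 and 23.8% ± 1.24 of it. Map1lc3b had the smallest share in both tissues, 6.29% ± 0.19 and 4.47% ± 0.02, although its CPM lie above those of Map1lc3a and Gabarap. The length used for it is 7517 bases, where that of Map1lc3a is 1181. These lengths join the exons of all annotated transcripts, and in Map1lc3b they cover most of the gene. The mRNAs present may be shorter, so its share, the family sum and the ranking by TPM depend on this length. In KO mice the shares of Gabarapl1 were 36.0% ± 1.02 and 51.6% ± 0.74 (SD, n = 2), and those of Gabarapl2 18.2% ± 1.22 and 8.03% ± 0.03.

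**Figure D4:**
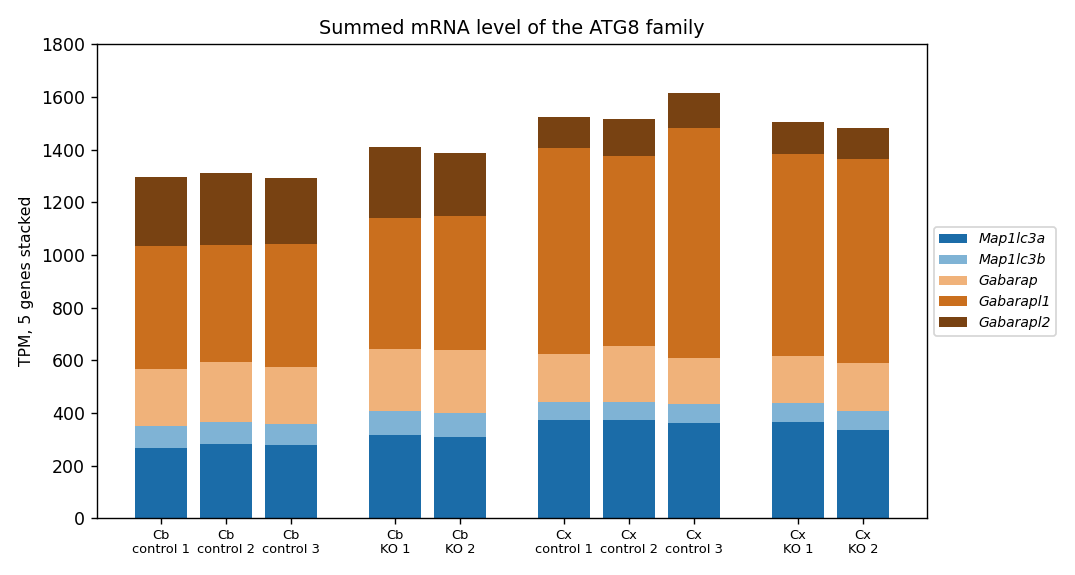
TPM of the 5 ATG8 family genes stacked for each of the 10 libraries (axis from 0), by tissue (Cb, cerebellum; Cx, cortex) and mouse. The sum is 1291 to 1311 TPM in control cerebellum, 1387 to 1408 in KO cerebellum, 1515 to 1615 in control cortex and 1482 to 1503 in KO cortex, and the Gabarapl1 block is larger in every cortex library than in any cerebellum library.

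All 5 cargo receptors were called between the tissues of control mice, beside 53.3% of all genes tested. In KO mice 4 of 5 were called, beside 50.3%, and the values below are those of control mice. Optn, a gene linked to glaucoma and ALS whose protein brings damaged mitochondria and bacteria to autophagosomes, was at 28.5, 30.5 and 29.2 CPM in cerebellum and 18.9, 16.7 and 18.2 CPM in cortex, without overlap (log2 difference 0.71, SE 0.09, adjusted p = 0.000227). Nbr1 and Tax1bp1, receptors of ubiquitinated cargo, were also higher in cerebellum, by 0.41 and 0.32. Sqstm1 and Calcoco1 were lower, by log2 differences of -0.48 and -0.41. Sqstm1 was the most abundant receptor per length in both tissues, at 323 ± 9.85 TPM in cerebellum and 383 ± 11.1 TPM in cortex (SD, n = 3), where Optn was at 25.4 ± 0.09 and 13.3 ± 1.56 TPM.

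In control mice the members of the initiation and PI3-kinase steps that were called were lower in cerebellum. Ulk2 was at 75.0, 74.2 and 81.5 CPM in cerebellum and 118, 109 and 118 CPM in cortex (log2 difference -0.58, SE 0.08, adjusted p = 0.000236). Atg101, which steadies the ATG13 subunit of the kinase complex, was at 21.4, 25.3 and 18.2 CPM against 31.1, 33.2 and 27.8 CPM (log2 difference -0.51, SE 0.13, adjusted p = 0.0108). Without control 1 its adjusted p was 0.108. The other Ulk kinase went the other way without passing the test, with Ulk1 at a log2 difference of 0.25 and an interval of -0.03 to 0.54. Becn1 and Pik3r4 were lower by differences of -0.46 and -0.39. Of the exonic bases of Becn1, 43.9% lie in an exon of another gene, with Cntd1 the largest overlap. In KO mice Atg14 of the PI3-kinase step was called higher in cerebellum, at a log2 difference of 0.35.

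At the membrane step Atg2b, one of a pair of genes for the lipid transfer bridge, was at 81.0, 64.4 and 75.2 CPM in cerebellum and 49.2, 38.1 and 50.1 CPM in cortex (log2 difference 0.68, SE 0.13, adjusted p = 0.00202). Its partner Atg2a had a difference of -0.02 with an interval of -0.27 to 0.23. Atg9a, the lipid scramblase of the seed vesicles, was lower in cerebellum by a difference of -0.46. It was the most abundant member of this step per length, at 50.2 ± 3.74 TPM in cerebellum and 59.4 ± 9.15 TPM in cortex (SD, n = 3). Of its exonic bases, 32.6% lie in an exon of another gene, with Gm29253 the largest overlap.

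The 4 ATG4 proteases, which cut the tails shown above and later release ATG8 from membranes, differed in direction between the tissues. Atg4c was at 28.7, 26.0 and 29.6 CPM in cerebellum and 37.2, 37.9 and 44.0 CPM in cortex (log2 difference -0.50, SE 0.10, adjusted p = 0.00272). Atg4d was higher in cerebellum, at 60.4, 65.4 and 63.3 CPM against 43.4, 47.4 and 50.9 CPM (log2 difference 0.41, SE 0.08, adjusted p = 0.00310). In both genes the tissues did not overlap. Atg4a and Atg4b had differences of 0.13 and 0.13 that did not pass the test. Elsewhere in the conjugation step Atg3 was higher in cerebellum, with 60.1, 64.2 and 64.3 CPM there and 44.1, 48.0 and 45.7 CPM in cortex (log2 difference 0.45, SE 0.07, adjusted p = 0.00103), and Atg16l1 was lower by a difference of -0.42. Atg5, Atg7, Atg10 and Atg12 did not pass the test.

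The KO mice give the same tissue comparison in other animals, with no library in common. There 22 of 39 members were called, 10 higher and 12 lower in cerebellum, 56.4% of the members beside 50.3% of all genes tested, of which 24.4% were higher and 25.9% lower. Of the 18 members called in control mice, 16 were called in the same direction in KO mice, which is 88.9% of the control calls and 72.7% of the KO calls. For all genes tested in both, these shares were 79.0% and 83.2%. Pik3r4 and Calcoco1 were called in control mice only, and Atg13, Atg14, Wipi1, Atg7, Atg12 and Gabarap in KO mice only. The test of each such difference is the interaction term above, which called none of these 8 genes. Across the 39 genes the log2 differences of both groups of mice correlated with r = 0.93, and across all genes tested in both with r = 0.94. Genes are not independent replicates, and here every gene shares the same libraries.

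**Figure D5:**
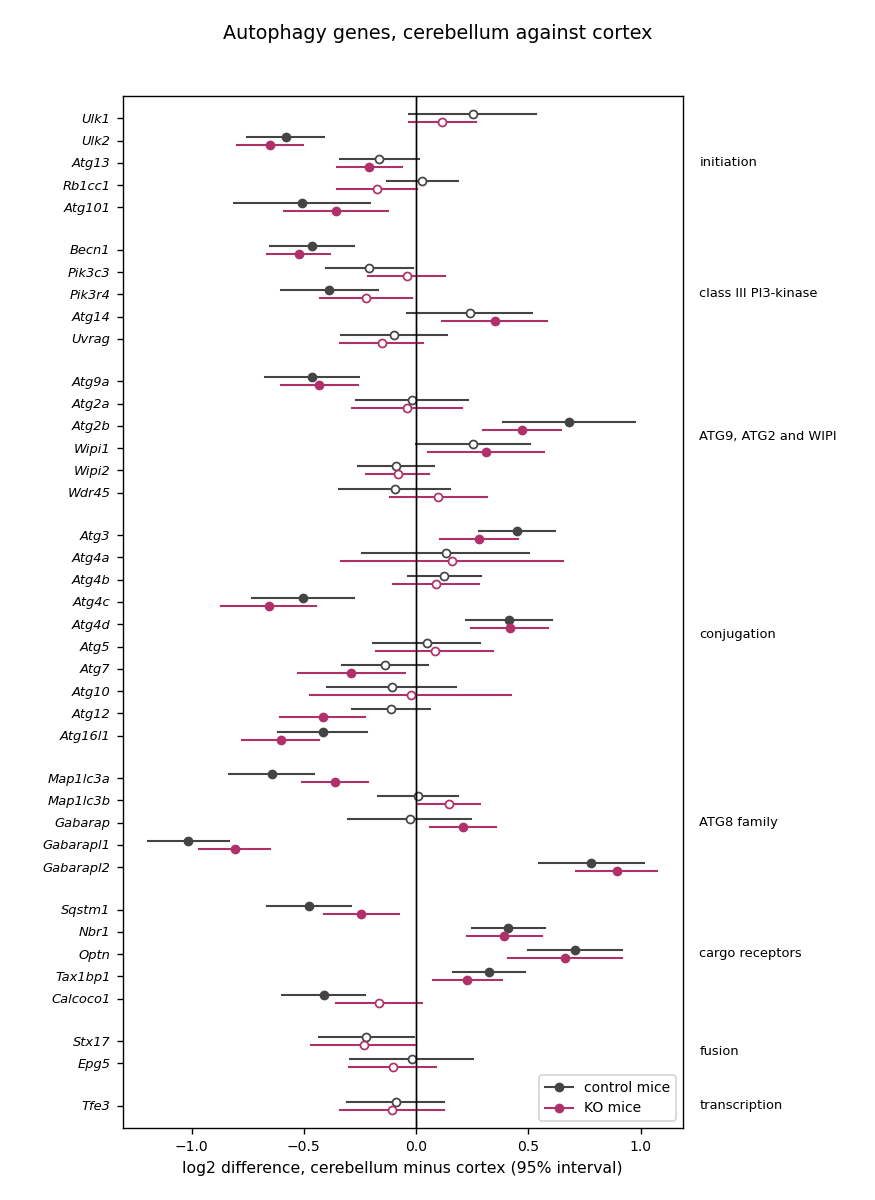
Log2 difference, cerebellum minus cortex, of the 39 members in control mice (grey, 3 libraries per tissue) and KO mice (magenta, 2 libraries per tissue), ordered by step. Points are edgeR estimates, filled where the adjusted p was under 0.05, and bars are 95% intervals; 36 of the 39 members have the same direction in both groups of mice, with Gabarapl1 lowest and Gabarapl2 highest in each.

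All 18 members called in control mice had the same direction in the KO mice. Gabarap, which was not called in control mice and had a slightly negative difference there, went the other way. It was called higher in KO cerebellum, at 133 and 132 CPM against 107 and 116 CPM in KO cortex. Gabarapl2 was at 192 and 169.5 CPM in KO cerebellum and 93.2 and 96.1 CPM in KO cortex, a log2 difference of 0.89, and Gabarapl1 at 307 and 311 against 515 and 539 CPM, a difference of -0.81. Map1lc3a was at 114 and 110.1 CPM against 143 and 138 CPM, a difference of -0.36 where the control mice had -0.64. Atg12 was at 55.5 and 58.6 CPM in KO cerebellum and 70.1 and 78.4 CPM in KO cortex, a difference of -0.42 where the control mice had -0.11. Optn, Atg2b, Atg4d and Atg3 were again higher in cerebellum, by 0.66, 0.47, 0.42 and 0.28, and Atg4c, Ulk2 and Atg101 lower, by differences of -0.66, -0.65 and -0.36. The calls of Atg3 and Atg101 in KO mice were lost by DESeq2 (adjusted p 0.0731 and 0.0968) and in edgeR without cortex KO 1 (0.0756 and 0.0665) or cortex KO 2 (0.107 and 0.0935). That of Atg101 was also lost in the fit of all 10 libraries (adjusted p = 0.107) and without cerebellum KO 2 (adjusted p = 0.0552). Purkinje cell markers summed to 4047 to 4146 CPM in these cerebella and to 8037 to 9852 CPM in those of control mice, and the part of this in the tissue differences was not tested.

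A further 58 genes act around this machinery, in 5 lists: 14 of the mTORC1, TSC and AMPK signalling that controls initiation, 10 regulators of nucleation, 15 receptors and kinases of selective autophagy, 14 tethering and fusion factors and 5 transcription regulators. Between KO and control, edgeR called 0 of the 58 in cerebellum, beside 2.14% of all genes. In cortex it called 0 of them, beside 0% of all genes, so these counts say little about the 58. At an unadjusted p under 0.05 there were 6 in cerebellum, 10.3% beside 13.4% of all genes, and 1 in cortex, 1.72% beside 5.93%. The medians were 0.02 and -0.02. Between the tissues of control mice 30 were called, 16 higher and 14 lower in cerebellum, a share of 51.7% beside 53.3% of all genes. In KO mice 37 were called, 63.8% beside 50.3%. The transcription regulators were the list with the largest median difference, 0.84, with 4 of 5 called higher in cerebellum, beside 26.5% of all genes. These 4, named after their values were seen, are Tfeb, Mitf, Foxo3 and Zkscan3, of which Tfeb and Mitf belong to the same family as Tfe3. Tfe3 itself had a difference of -0.09 with an interval of -0.31 to 0.13.

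The factors of that family bind the letters CACGTG. RefSeq promoters (GRCm38.p6, 250 bases before to 50 after the start) were at hand for 32 of the 39 members. CACGTG, which reads the same on both strands, was present in 4 of these 32 (12.5%), Atg3, Atg5, Atg7 and Atg14, beside 8.09% of all genes. TCACGTGA, which contains it, was found in 1 member, Atg3, beside 1.12% of all genes. Atg3 is shown as the single member with TCACGTGA, and the stretch also holds a separate CACGTG. The matches are in capitals, in the bases 110 to 51 before its start, at chr16:45158719-45158778 on the plus strand.
Atg3 promoter: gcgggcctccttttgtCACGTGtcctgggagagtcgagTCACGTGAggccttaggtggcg
Of these 4 genes, Atg3 was higher in cerebellum of control mice and the others did not pass the test, and none was called between KO and control. A match describes the letters and not a bound site.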

How the data were processed

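Strand-specific mRNA libraries of cerebellum and cortex from 5 mice were analysed, 1 table of raw counts per library. According to the methods and the file headers, paired reads were trimmed by the authors and aligned to GRCm38 with STAR. They then counted read pairs over exons with featureCounts of Subread 2.0.1, and the counts were deposited without normalization. Strand was not used, a pair in several genes was counted for each, pairs with ends on different chromosomes and reads mapping to several places were left out, and replicates were not pooled. DESeq2 1.38.3 and deepTools are also named in the submitters' notes. Each table has 81881 entries, of which the 55536 mouse genes were kept and named from GENCODE M21. The other 26345 entries held 0.160% to 0.926% of the counts of a library.

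Groups came from the labels. KO was compared with control in each tissue, cerebellum with cortex in control and in KO mice, and the KO effects of the tissues with each other, by the quasi-likelihood test of edgeR 4.0.16 in R 4.3.3. Low genes were dropped by filterByExpr (count minimum 10), libraries were scaled by TMM factors, and p-values were adjusted by Benjamini and Hochberg over all genes tested. CPM are TMM-scaled over all 10 libraries, and TPM use the exonic length joined over all annotated transcripts of a gene. A log2 difference is given with its standard error (SE) or 95% interval. Alternatives were DESeq2 1.42.0, its size factors in edgeR, no filter on low counts, a fit of all 10 libraries, inferred sex as a term, the mouse as a replicate block and each library or mouse left out. The labels show by animal numbers that same-numbered libraries come from the same mouse. Their deviations from the group means correlated with r of 0.16, 0.33 and 0.14 in the 3 control mice. Pairs of different control mice had r from -0.22 to 0.11, so these values separate the mice only weakly. In the KO mice r was 0.33 within a mouse and -0.33 between mice. With 2 mice the deviations mirror each other, so this is a single value.

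The members and the lists were chosen with earlier results of these data known. Values in every library were given for the members called in a KO comparison or else the 5 with the smallest p in each tissue, the 5 called members with the largest tissue difference in each direction, the members called for the difference of the KO effects or else the 3 with the smallest p, and the ATG8 family. Other members with values were named after their values were seen.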

Additional observations from a re-analysis of the deposited data

How the results depend on the processing

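Both KO comparisons and the difference of the KO effects had 0 members called under all alternatives, with the exception of cerebellum, where DESeq2 and edgeR with no filter on low counts each called 1 member, Atg12. Its adjusted p ran from 0.102 to 0.340 with each library left out. Among the named members' values in the KO comparisons and their difference, 140 kept their side of the threshold and 2, both of Atg12, passed it. In the control mice 14 to 22 members were called between the tissues with each mouse left out, where all mice gave 18. Over all genes 6794 to 11832 were called in these fits, where all mice gave 10349. In the KO mice, where leaving out a library leaves 1 of that tissue, assumed to vary like the other group, 14 to 22 members were called where all libraries gave 22. The number was lowest without cortex KO 1 or cortex KO 2, where the calls over all genes were also fewer than with all libraries. Those higher in cerebellum then numbered 5 to 9, at 5 and 6 without these libraries, and 6 by DESeq2, beside 10. The cause was not tested. No named member's value changed direction under the alternatives run for it, but values near 0 did: the cerebellum median of the members, 0.01, was -0.01 without control 2 and -0.02 without KO 1, and Atg5 and Atg7, at -0.04 and 0.01 there, were at 0.05 and -0.02 without control 2. With the mouse as a replicate block the tissue comparison called 19 members in control mice and 22 in KO mice, and the block changed no call of the difference of the KO effects, where it raised the calls over all genes from 21 to 128. Over all genes, calls also moved with the method: 417 in cerebellum became 719 by DESeq2 and 1363 with no filter, 0 in cortex became 53 and 454, and 21 for the difference became 219 and 599. With each library left out, cerebellum had 135 to 609, cortex 0 to 157 and the difference 3 to 117, the highest value in each without control 2. The 95% intervals of the members spanned -0.49 to 0.47 in cerebellum and -0.57 to 0.59 in cortex, and smaller differences could not be told from 0 for most of them.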
